A study of Mus musculus with 43 samples.

Results

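The RNA of TGFB1-treated mouse intestinal organoids was compared between organoids that had been irradiated beforehand and organoids that had not. The libraries were chosen by label. They are the 3 irradiated and the 3 non-irradiated bulk RNA-seq libraries with TGFB1 at day 7, so 6 of the 18 bulk RNA libraries and of the 43 samples in the series, which also holds ATAC-seq and single-cell RNA-seq. All were labelled as wild-type primary intestinal organoids of strain C57BL/6, which are cultured balls of gut epithelium with crypt-like buds. The non-irradiated group (0 Gy) received 2 ng/mL TGFB1 for 24 h from day 6. The irradiated group received 4 Gy on day 4 and then the same 2 ng/mL TGFB1 for 24 h from day 6. Vehicle libraries of day 7, 3 without irradiation and 3 after 4 Gy, served as the reference level. The labels do not say whether replicates came from separate mice or cultures, so the p-values below measure only the spread between these samples. The sources used here give neither the gut segment nor the number of mice.

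TGFB1 is a secreted ligand. It binds the receptor TGFBR2, which recruits and activates TGFBR1, and the activated receptor phosphorylates SMAD2 and SMAD3, which enter the nucleus with SMAD4. Among the genes that SMADs switch on are inhibitors of the pathway itself, such as Smad7, Skil and Pmepa1, and TGFB signalling is known for restraining the division of gut epithelial cells. Ionizing radiation breaks DNA and kills dividing crypt cells, and the epithelium that survives passes through a regenerative state marked by genes such as Clu, Anxa1 and Ly6a.

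Values are FPKM, fragments scaled to transcript length and to the number of mapped fragments, from a table of the irradiated and a table of the non-irradiated libraries. Between 11040 and 11312 genes exceeded 1 FPKM in each of the 12 libraries. Libraries of the same group correlated at 0.985 to 0.990 across genes (Pearson, log2 of FPKM + 1), and the irradiated and non-irradiated TGFB1 libraries at 0.874 to 0.881. Replicates differed little, with a median coefficient of variation of 3.66% and 4.12% for the non-irradiated and irradiated TGFB1 groups. Read depth is unknown, since the tables hold no counts.

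The comparison has a limit that touches every level and every interaction given here. Irradiation, the table and anything else that differed between the 2 sets of organoids cannot be told apart, so a difference between the tables was described as a level and not tested. The labels give 1 strain, yet some genes differed between the tables by far more than most. Pla2g2a, a secreted phospholipase of Paneth cells, stood at 3966, 3695 and 3592 FPKM in the non-irradiated TGFB1 libraries and at 44.5, 48.4 and 49.7 FPKM in the irradiated ones. Its vehicle means were 4815 and 43.2 FPKM, so the difference was there with and without TGFB1. Wdfy1, an endosomal adaptor, showed the same order, with 23.7, 25.8 and 25.1 against 2.30, 2.32 and 2.29 FPKM. The Y-linked translation factor gene Eif2s3y was read in every library, at 73.4, 72.4 and 73.1 against 23.2, 22.3 and 26.2 FPKM. The sources used here do not say whether the 2 sets came from the same organoid line. At the extreme, 10 genes stayed under 0.5 FPKM in every library of 1 table and at 5 FPKM or more in every library of the other. Of these, 9 were high in the irradiated table (among them Aqp3, Cfhr2, Defa6, Fam20a, Hsd3b3, Kpna2, Rpl29 and Syna) and 1 in the non-irradiated table (BC064078).

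Averaged over the 6 TGFB1 libraries, 11403 genes reached 1 FPKM. For each, the TGFB1 gap is the mean log2(FPKM + 1) of the irradiated minus that of the non-irradiated TGFB1 libraries, and the vehicle gap is the same difference between the vehicle groups. A gene was called apart when its gap was at least 1 (2-fold on this scale) and no library of one group overlapped the other group. By this rule 1112 genes (9.75%) were higher and 1020 (8.95%) lower in the irradiated TGFB1 organoids. With vehicle, 870 (7.63%) were higher and 821 (7.2%) lower. Without any size limit, the 3 libraries of one group lay clear of the other 3 for 84.1% of genes, 4383 higher and 5212 lower after irradiation, so small gaps between the tables were the rule.

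Most of what set the irradiated TGFB1 organoids apart was already there with vehicle. Of the 2132 genes apart with TGFB1, 1193 (56.0%) were apart in the same direction with vehicle, and these are called carried over (649 higher, 544 lower). Seen from the other side, 70.6% of the 1691 genes apart with vehicle were still apart in the same direction with TGFB1. Across the 11403 genes, the 2 gaps correlated at a Pearson r of 0.840 and a Spearman rho of 0.829. This correlation is across genes within 1 pair of tables and is given as a description. The TGFB1 gap was the wider one, with a standard deviation over genes of 0.914 against 0.796 for the vehicle gap.

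The test used for all genes was the interaction, which is the TGFB1 gap minus the vehicle gap. It equals the TGFB1 effect in irradiated organoids minus the TGFB1 effect in non-irradiated organoids. A scale difference between the tables drops out of it, apart from the 1 added to the FPKM. Any other difference between the 2 sets of organoids that alters their TGFB1 response does not drop out. In the interaction, too, such a difference cannot be told apart from irradiation. In limma, over the 12 libraries and the 11411 genes that averaged 1 FPKM or more there, it was called at a Benjamini-Hochberg adjusted p under 0.05. The call went upward for 2888 genes (25.3%) and downward for 3173 (27.8%), and 500 genes had an interaction of at least 2-fold. With so many calls, a called interaction alone says little of a gene, and its size is given throughout. Within each table, limma called a rise with TGFB1 for 3734 genes (32.7%) and a fall for 3925 (34.4%) without irradiation, and a rise for 4124 (36.1%) and a fall for 4599 (40.3%) after it.

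Genes that were apart only with TGFB1 were separated from genes that were already apart with vehicle. A gene is called opened when it was apart with TGFB1, not apart with vehicle, and had an interaction called in the direction of its TGFB1 gap. There were 781 such genes, 391 higher and 390 lower after irradiation, which is 36.6% of those apart. The reverse, called closed, was found for 399 genes, which were apart with vehicle, not apart with TGFB1, and had an interaction called against the vehicle gap. Of the closed genes, 190 had been higher and 209 lower after irradiation with vehicle. Both classes rest on the rule for apart and on a called interaction of any size. A gap below the limit could thus be there with the other treatment. Among opened genes, the gap went from 0.94 with vehicle to 1.17 with TGFB1 for Ski, but from 0.002 to 1.06 for Slc3a1. Among closed genes, it went from −1.16 to −0.90 for Bmpr1a, but from −1.31 to 0.24 for Tgfb1. In 4 genes the order turned over, with the irradiated organoids apart in one direction with vehicle and in the other with TGFB1. Among the 1193 carried-over genes the interaction was called for 645, widening the gap in 456 and narrowing it in 189.

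**Figure D1:**
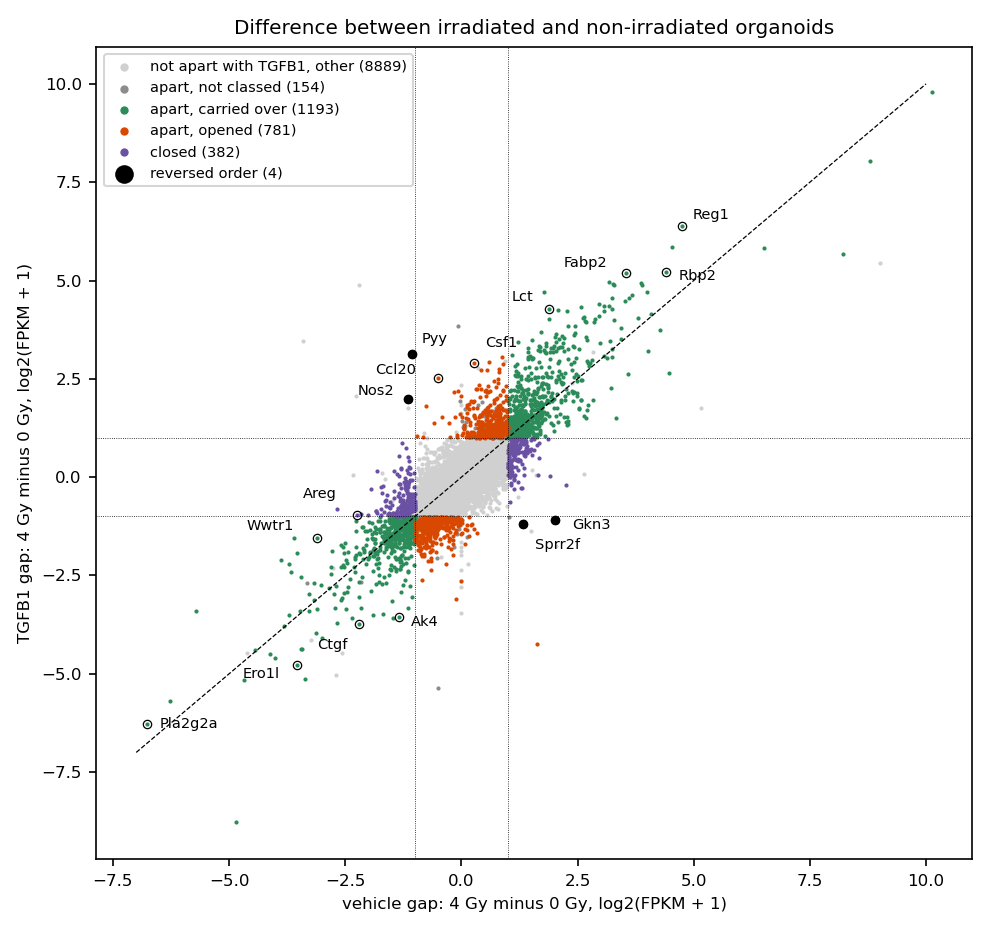
Each point is 1 of the 11403 genes, with the vehicle gap (irradiated minus non-irradiated, log2 of FPKM + 1) on the horizontal and the TGFB1 gap on the vertical axis. Dotted lines mark a gap of 1 in either direction and the dashed line marks equal gaps; carried-over genes lie in the outer corners, opened genes above and below the middle, and the 382 closed genes shown are those that also reached a mean of 1 FPKM in the TGFB1 libraries (17 more did not).

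Genes of absorptive enterocytes were higher in the irradiated TGFB1 organoids. Of 25 brush border genes, which encode the digestive enzymes and transporters of the enterocyte surface, 19 were apart and higher and 0 lower, against 9.75% and 8.95% of all genes. Their median TGFB1 gap was 2.48 and their median vehicle gap 1.28, while the medians over all genes were −0.07 and −0.03. limma called the interaction upward for 20 of the 25 and downward for 1. In non-irradiated organoids TGFB1 lowered 19 of them and raised 5. In irradiated organoids it lowered 13 and raised 11. In bulk RNA, more cells of a type and more RNA per cell cannot be told apart, here or for any other group of genes. Counts for this and every later list run over the members that reached a mean of 1 FPKM in the TGFB1 libraries. They are to be read against the shares over all genes. Of all genes, 9.75% were apart and higher and 8.95% lower with TGFB1, and the interaction was called upward for 25.3% and downward for 27.8%. A TGFB1 rise was called for 32.7% of all genes without irradiation and 36.1% after it, and a fall for 34.4% and 40.3%.

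Sis, the sucrase-isomaltase that splits sucrose and starch fragments, shows how the gap widened. Its level was 20.6, 25.3 and 21.2 FPKM in the non-irradiated and 395, 368 and 365 FPKM in the irradiated TGFB1 libraries. All irradiated values lay far above all non-irradiated ones, a 16.8-fold difference of means, against 3.68-fold with vehicle. The non-irradiated organoids fell from 144 ± 10.5 to 22.3 ± 2.55 FPKM with TGFB1 (SD, n = 3 per group) and the irradiated ones from 529 ± 10.4 to 376 ± 16.5 FPKM. The interaction was 2.14 ± 0.095 (SE, limma adjusted p 9.48e-10). Lactase (Lct), which splits milk sugar, moved in opposite directions in the 2 arms. It stood at 0.923, 0.989 and 0.873 FPKM without and at 33.8, 38.3 and 37.0 FPKM with irradiation, and the groups did not come close. TGFB1 lowered it from a mean of 1.82 FPKM in non-irradiated organoids and raised it from 9.43 FPKM in irradiated ones (interaction 2.39 ± 0.11, SE, limma adjusted p 7.28e-10).

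Other surface enzymes kept that order. Trehalase (Treh), which splits the sugar trehalose, was at 0.533, 0.804 and 0.554 FPKM in non-irradiated and 45.1, 51.2 and 48.0 FPKM in irradiated TGFB1 libraries. Mme, a membrane metallopeptidase, stood at 0.944, 1.49 and 1.16 against 65.0, 63.5 and 62.0 FPKM. In both genes the non-irradiated libraries were near 1 FPKM and the irradiated ones above 40. Slc6a19, the neutral amino acid transporter of the brush border, was at 0.784 ± 0.179 against 30.3 ± 0.860 FPKM, and its interaction of 0.07 was not called (limma adjusted p 0.542), with gaps of 4.07 with vehicle and 4.14 with TGFB1. With 0.1 in place of 1 added to the FPKM, that interaction was 0.60 (limma adjusted p 0.00426).

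Of the sugar transporters, Slc5a1 and Slc2a2 opened and Slc2a5 carried over. Slc5a1, the sodium-coupled glucose transporter of the brush border, was at 40.4, 46.0 and 41.1 FPKM without and 221, 211 and 209.5 FPKM with irradiation. Slc2a2, the glucose transporter of the basolateral side, was at 3.05, 3.54 and 3.35 against 30.6, 30.8 and 30.1 FPKM. Neither overlapped between groups with TGFB1, and neither reached a vehicle gap of 1 (0.75 and 0.89). Slc2a5, the fructose transporter, was apart with both treatments, at 2.39 against 35.0 FPKM with TGFB1 and 13.3 against 64.1 with vehicle. Ada, adenosine deaminase, and Enpp3, an ectonucleotidase, opened as well, at means of 313 and 26.2 FPKM against 65.0 and 2.28 FPKM without irradiation. Enpp3 already differed with vehicle, at means of 3.46 without and 7.24 FPKM with irradiation, by a gap of 0.88. TGFB1 raised Ada in both arms (0.78 and 2.70), and it lowered Enpp3 without and raised it after irradiation (−0.44 and 1.73, interactions of Ada and Enpp3 1.92 and 2.17, limma adjusted p 6.15e-10 and 3.68e-09).

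Exceptions within the same list were Dpp4, Nt5e, Mgam, Vil1, Cdhr2 and Krt20, none of which was apart. The dipeptidyl peptidase Dpp4 ended at 12.7 and 11.6 FPKM, and Krt20, a keratin of mature surface cells, at 442 and 537 FPKM. Krt20 also had the only interaction of the list that was called downward (−0.71, limma adjusted p 6.19e-06). TGFB1 raised it more without irradiation (2.56) than after it (1.85). The higher level after irradiation was therefore not shared by every enterocyte gene.

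Genes for the uptake and export of dietary fat followed the enzymes. Of 24 measured members, 19 were apart and higher and 2 lower, with a median TGFB1 gap of 2.12 against 1.34 with vehicle, and the interaction was called upward for 18 and downward for 2. TGFB1 lowered 18 of the 24 without irradiation and 7 after it, and raised 4 and 10. The widest gaps were those of Rbp2 and Fabp2, which encode the cytoplasmic carriers of retinol and fatty acids in enterocytes. Their promoter sequences are shown because both hold a motif of the enterocyte factors HNF4A and HNF4G, whose own levels follow. Each run is the 250 bases before the RefSeq transcript start, 5′ to 3′ on the gene's strand (GRCm38.p6; Rbp2 at chr9:98490287-98490536, plus strand; Fabp2 at chr3:122894822-122895071, plus strand), and capitals mark CAAAGTNCA, searched on both strands.
Rbp2: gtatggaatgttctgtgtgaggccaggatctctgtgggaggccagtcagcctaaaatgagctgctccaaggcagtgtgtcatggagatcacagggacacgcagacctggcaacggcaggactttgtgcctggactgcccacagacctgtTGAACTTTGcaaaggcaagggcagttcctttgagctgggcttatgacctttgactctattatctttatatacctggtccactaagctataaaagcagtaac
Fabp2: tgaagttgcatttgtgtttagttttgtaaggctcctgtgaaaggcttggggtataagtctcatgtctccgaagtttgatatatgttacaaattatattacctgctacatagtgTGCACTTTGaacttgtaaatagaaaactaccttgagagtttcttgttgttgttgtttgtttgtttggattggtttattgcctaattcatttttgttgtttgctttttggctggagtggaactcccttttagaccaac

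The match begins 101 bases before the start of Rbp2 and 137 bases before that of Fabp2. It was found in 3 of 17 promoters of the lipid list that RefSeq's table holds (17.6%), in 3 of 23 of the brush border list (13%) and in 326 of all 27025 promoters of the same length (1.21%). A match is a description of these letters and not evidence of binding. Hnf4g stood at 13.1, 15.4 and 15.3 FPKM in the non-irradiated and 74.8, 71.0 and 67.9 FPKM in the irradiated TGFB1 libraries, with no overlap and an interaction of 0.89 ± 0.077 (SE, limma adjusted p 3.62e-07). Hnf4a differed by less and was not apart, at 205, 230.0 and 223 against 305, 313 and 302 FPKM. The interaction of Hnf4a was not called (0.02, limma adjusted p 0.724).

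Rbp2 was at 76.9, 78.6 and 68.4 FPKM without irradiation and at 2726, 2756 and 2949 FPKM after it. Fabp2 was at 12.9, 12.2 and 11.4 against 487, 482 and 473 FPKM. Both were far higher in every irradiated TGFB1 library, and both gaps were wider than with vehicle, where the means were 85.8 and 1837 FPKM for Rbp2 and 47.5 and 564 FPKM for Fabp2. The interactions were 0.81 ± 0.074 (SE, limma adjusted p 5.62e-07) and 1.65 ± 0.063 (SE, limma adjusted p 1.44e-10).

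The apolipoproteins, which coat the fat particles that enterocytes export, were higher too. Apoa1 reached 6653, 6277 and 6516 FPKM in the irradiated TGFB1 libraries and 363, 345 and 306 FPKM in the non-irradiated ones. TGFB1 lowered it without irradiation, from 538 ± 40.6 to 338 ± 29.4 FPKM, and raised it after irradiation, from 2283 ± 142 to 6482 ± 190.4 FPKM (SD, n = 3 per group; interaction 2.18 ± 0.094, SE, limma adjusted p 7.85e-10). Apob, the scaffold of those particles, and Apoa4 rose with TGFB1 in both arms and ended at 359 against 80.4 and 3509 against 218 FPKM. Mttp, which loads lipid onto Apob, was at 467 against 77.5 FPKM, and the sterol pumps Abcg5 and Abcg8 at 66.2 against 11.4 and 41.7 against 5.25 FPKM. Only the fatty acid desaturases were apart in the other direction. Scd1 was at 108, 109 and 105 FPKM without and 56.2, 54.6 and 44.0 FPKM with irradiation, and Scd2 at 853 against 369 FPKM, both opened.

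Genes for the handling of drugs and other foreign compounds formed a like group, with 19 of 29 apart and higher and 1 lower (median TGFB1 gap 1.79, vehicle gap 1.23). TGFB1 lowered 28 of the 29 without irradiation and 21 after it, against 34.4% and 40.3% of all genes. Aldh1a1, which makes retinoic acid from retinal, ended at 2.76, 2.65 and 3.58 FPKM in non-irradiated and 115, 125 and 110.3 FPKM in irradiated libraries. Cyp3a11, a cytochrome P450, was at 0.620 against 34.8 FPKM, and the carboxylesterase Ces2a at 6.26 against 103 FPKM. Not all detoxifying genes differed. The glutathione transferase Gstp1 (287 and 275 FPKM), the quinone reductase Nqo1 (36.1 and 33.7 FPKM) and the epoxide hydrolase Ephx1 (69.7 and 63.7 FPKM) ended close together, while Gsta3 opened downward (61.1 against 22.4 FPKM).

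Reg proteins are secreted lectins that bind bacteria or act on regrowth, and they gave some of the widest gaps of all. Reg1 was at 17.7, 22.0 and 20.1 FPKM in the non-irradiated and at 1829.6, 1671 and 1772 FPKM in the irradiated TGFB1 libraries. The lowest irradiated value was far above the highest non-irradiated one, with means differing 88.2-fold, and with vehicle it was 27.3-fold. TGFB1 lowered Reg1 without irradiation (−1.58, limma adjusted p 1.46e-09), while after irradiation its effect was 0.06 (limma adjusted p 0.53), and the interaction was 1.64 ± 0.11 (SE, limma adjusted p 1.39e-07). Reg3b, which kills Gram-negative bacteria, was at 23.5, 24.8 and 21.5 against 743, 737 and 793 FPKM. Reg3g, which acts on Gram-positive bacteria, was at 71.4, 60.8 and 61.8 against 337, 320.2 and 336 FPKM and opened with TGFB1 (vehicle means 149 and 194 FPKM). Reg4 was not apart, at 380.2 and 349.8 FPKM, and Duox2, an oxidase that makes hydrogen peroxide at the surface, was lower after irradiation, at 25.6, 29.6 and 30.8 against 9.84, 11.3 and 12.7 FPKM. Also among the 12 widest gaps upward were Dnase1, a secreted nuclease (1.15, 0.759 and 0.626 against 105, 99.2 and 108 FPKM), and Scin, an actin-severing protein (0.863, 1.01 and 0.864 against 55.6, 58.6 and 57.6 FPKM).

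**Figure D2:**
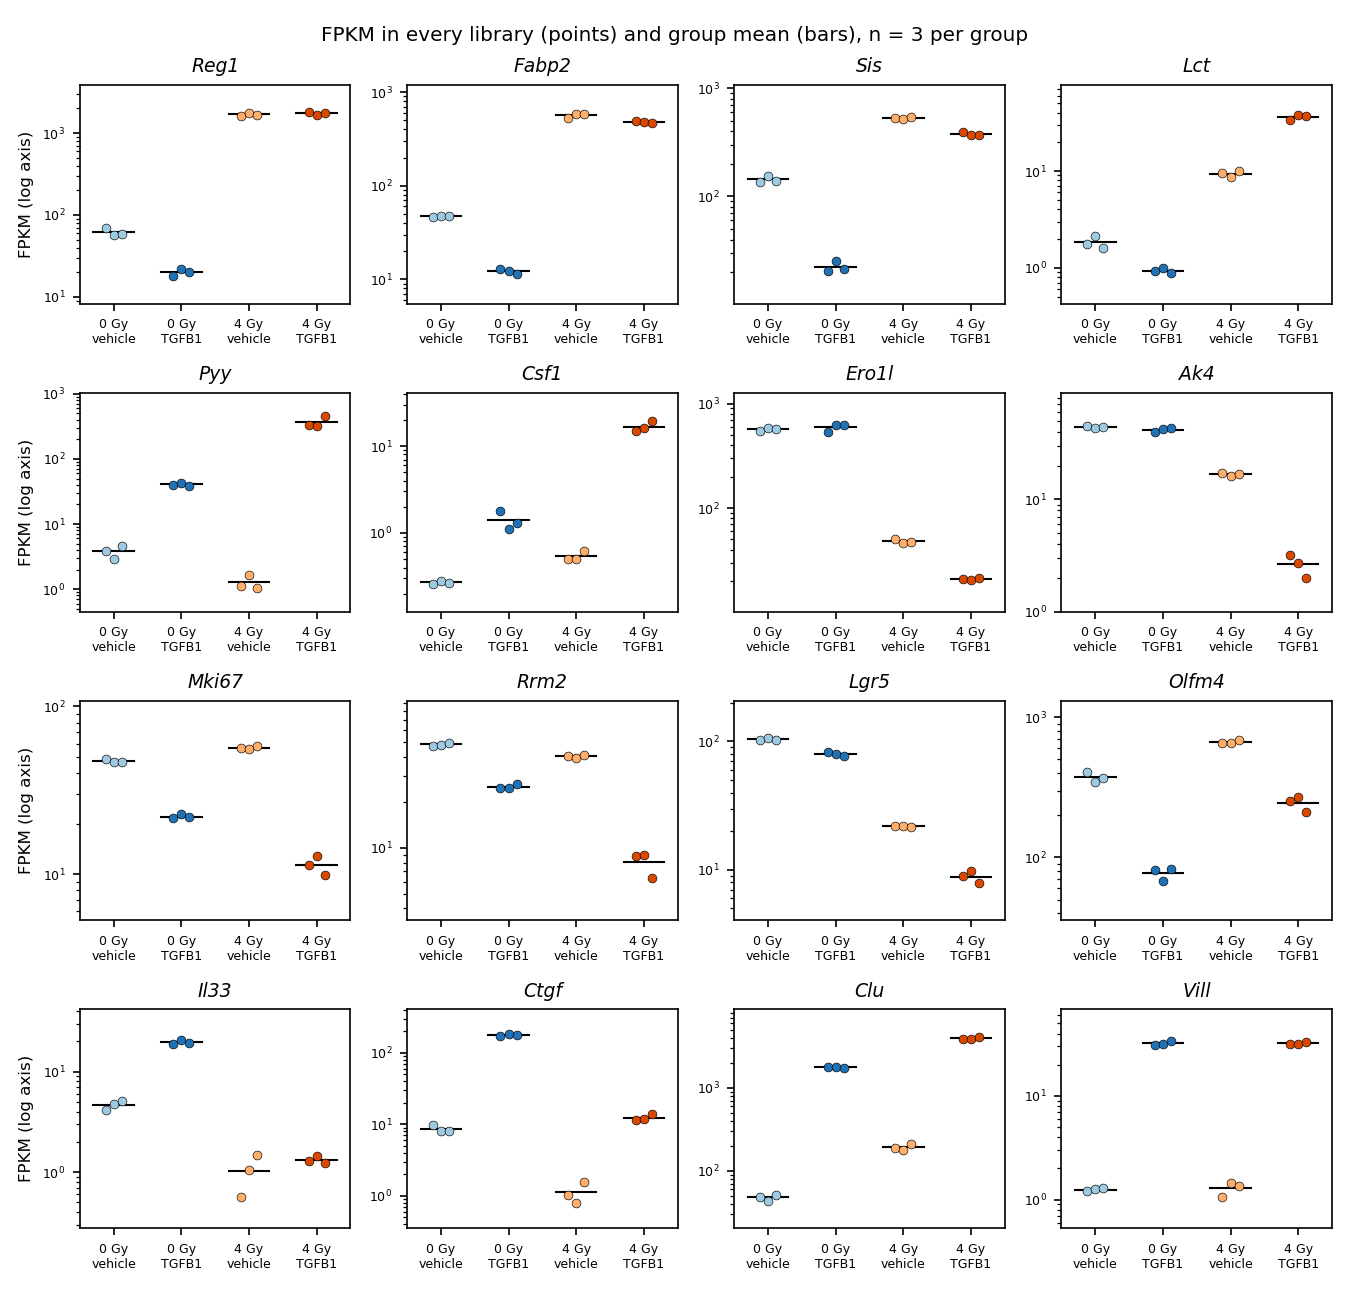
FPKM of 16 genes on a log axis in each of the 12 libraries (points) with the mean of each group of 3 (bars); blue is without and orange with irradiation, the lighter shade is vehicle. Reg1, Fabp2, Sis and Lct were high and Ero1l, Ak4, Lgr5 and Il33 low in irradiated organoids, Pyy changed its order between vehicle and TGFB1, and Vill ended at one level.

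Enteroendocrine genes went both ways with vehicle and were higher after irradiation with TGFB1. Of 21 measured members, 8 were apart and higher and 0 lower with TGFB1. With vehicle, 3 were apart and higher and 4 lower, against 7.63% and 7.2% of all genes. Gip, a hormone gene of K cells, had a vehicle gap of 1.42 and Pcsk1, a prohormone convertase gene, one of −1.85. The median gap went from −0.18 with vehicle to 0.68 with TGFB1, and the interaction was called upward for 18 and downward for 0. TGFB1 raised 3 of the 21 without irradiation and 19 after it, and lowered 5 and 1. Of all genes it raised 32.7% and 36.1% and lowered 34.4% and 40.3%. Pyy, the appetite-lowering peptide YY of L cells, had the largest upward interaction among genes reaching 10 FPKM. It was at 40.3, 42.9 and 38.3 FPKM in non-irradiated and 329, 325 and 449.8 FPKM in irradiated TGFB1 libraries. With vehicle the order was the reverse, 3.89, 2.88 and 4.62 against 1.11, 1.67 and 1.03 FPKM, so Pyy is 1 of the 4 genes that changed order. Its interaction was 4.21 ± 0.23 (SE, limma adjusted p 2.14e-07).

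Gcg, the proglucagon gene of the same L cells, was at 70.8, 60.0 and 69.3 FPKM without and 284, 305 and 315 FPKM with irradiation. Cck, the gene of cholecystokinin, was at 177, 156 and 168 against 674, 659 and 693 FPKM. Both opened, with vehicle gaps of 0.56 and 0.78, and TGFB1 effects were −0.31 and 0.17 without irradiation but 1.29 and 1.41 after it. The hormones of K and D cells, Gip (84.5 against 476 FPKM) and somatostatin, Sst (80.7 against 379.6 FPKM), were carried over and wider. Chga, a granule protein shared by these cells, was at 41.8, 44.1 and 42.3 against 120.3, 116 and 121 FPKM, clear of overlap. The fate-setting factor Neurog3, which acts in early endocrine progenitors, was not apart. It fell with TGFB1 in both arms to 3.25 and 5.41 FPKM, with an interaction of −0.30 (limma adjusted p 0.161, and −0.45 with 0.0143 without replicate 2 of the non-irradiated TGFB1 group).

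Cytokine and chemokine genes behaved in a like way. Of 18 measured members, 8 were apart and higher and 1 lower with TGFB1, while the medians of the gaps were −0.02 with vehicle and 0.84 with TGFB1, and the interaction went upward for 16 and downward for 1. Csf1, the growth factor of macrophages, was at 1.78, 1.10 and 1.30 FPKM without irradiation and 14.9, 15.9 and 19.5 FPKM after it. No values overlapped, and with vehicle both means were under 1 FPKM (0.270 and 0.543). The interaction was 2.61 ± 0.15 (SE, limma adjusted p 6.43e-09). Ccl20, which attracts CCR6-bearing lymphocytes and dendritic cells, was at 4.42, 5.18 and 6.62 against 36.4, 30.5 and 39.5 FPKM. TGFB1 lowered it without irradiation and raised it afterwards (−1.24 and 1.78, interaction 3.02 ± 0.17, SE, limma adjusted p 2.82e-08). Nos2, the inducible nitric oxide synthase, did the same and changed order, with 9.60, 10.8 and 10.0 against 3.69, 4.10 and 4.19 FPKM with vehicle and 2.44, 2.83 and 2.38 against 12.2, 12.4 and 14.7 FPKM with TGFB1.

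Il1rn, which blocks the interleukin 1 receptor, was at 24.0, 25.2 and 23.9 FPKM without and 204, 199 and 225 FPKM with irradiation. Cx3cl1, a membrane-bound chemokine, was at 11.9 against 76.2 FPKM, and Ccl25, the chemokine that draws gut-homing lymphocytes, at 45.1 against 299 FPKM. The alarmin Il33 was the exception, at 19.0, 20.6 and 19.2 FPKM without and 1.29, 1.46 and 1.23 FPKM with irradiation. TGFB1 raised Il33 without irradiation (1.86, limma adjusted p 1.11e-08), and the interaction was downward (−1.65 ± 0.18, SE, limma adjusted p 4.45e-06). Tnf ended closer, at 11.7 and 19.8 FPKM.

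A group of genes known to be switched on by low oxygen was far lower in irradiated TGFB1 organoids. This list was put together after the values had been seen, because Ero1l, Adm, Ankrd37 and Stc2 stood among the 12 lowest gaps, so its counts only describe it. Of 34 measured members, 31 were apart and lower and 1 higher (Pfkfb4), the median TGFB1 gap was −2.11 and the median vehicle gap −1.28, and the interaction was called downward for 28 and upward for 3. TGFB1 lowered 7 of the 34 without irradiation and 26 after it, and raised 15 and 5. Of all genes it lowered 34.4% and 40.3% and raised 32.7% and 36.1%. The promoters of 3 members are shown because the core letters bound by hypoxia-inducible factors, ACGTG, stand in them. Each is the 250 bases before the RefSeq start on the gene's strand, with matches on either strand in capitals (GRCm38.p6; Ankrd37 at chr8:45999851-46000100, Bnip3 at chr7:138909507-138909756 and Egln3 at chr12:54203875-54204124, all on the minus strand).
Ankrd37: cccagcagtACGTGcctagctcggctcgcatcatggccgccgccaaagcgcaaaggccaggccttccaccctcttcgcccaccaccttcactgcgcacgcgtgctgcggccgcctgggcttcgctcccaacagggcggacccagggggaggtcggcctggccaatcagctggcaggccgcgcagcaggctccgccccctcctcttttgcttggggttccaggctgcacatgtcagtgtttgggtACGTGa
Bnip3: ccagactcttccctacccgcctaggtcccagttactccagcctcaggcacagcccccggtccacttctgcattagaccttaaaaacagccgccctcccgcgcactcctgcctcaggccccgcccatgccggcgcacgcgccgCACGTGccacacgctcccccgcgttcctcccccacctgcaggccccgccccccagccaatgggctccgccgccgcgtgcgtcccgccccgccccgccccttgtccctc
Egln3: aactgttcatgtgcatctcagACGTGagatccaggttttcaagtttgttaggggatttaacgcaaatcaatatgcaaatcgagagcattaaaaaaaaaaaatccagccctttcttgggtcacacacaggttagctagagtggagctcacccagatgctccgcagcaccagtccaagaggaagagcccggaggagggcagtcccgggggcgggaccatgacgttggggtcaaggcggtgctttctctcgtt

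Matches begin 241 and 6 bases before the start of Ankrd37, 108 and 107 bases before that of Bnip3, where they overlap on the 2 strands, and 229 bases before that of Egln3. The letters occur in 15 of 30 promoters of the list that RefSeq's table holds (50%) and in 4477 of all 27025 (16.6%). In the lipid and brush border lists the shares were 2 of 17 (11.8%) and 3 of 23 (13%). These are counts of letters only.

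Ero1l, an oxidase of the endoplasmic reticulum that helps proteins form disulfide bonds, was at 541, 631 and 631 FPKM in the non-irradiated and 21.0, 20.5 and 21.2 FPKM in the irradiated TGFB1 libraries. It was 28.7-fold lower after irradiation, with no overlap, and 11.8-fold lower with vehicle. Ankrd37, an ankyrin-repeat protein, was at 225, 243 and 229 against 13.1, 11.6 and 13.9 FPKM, and Adm, the vessel-widening peptide adrenomedullin, at 66.5, 78.5 and 71.5 against 1.86, 2.14 and 2.03 FPKM. Here too every irradiated value lay far below every non-irradiated one. Bnip3, which marks mitochondria for removal, was at 115 ± 8.00 against 9.37 ± 1.57 FPKM, and Egln3, an oxygen-sensing hydroxylase, at 522 ± 12.7 against 68.8 ± 3.00 FPKM (SD, n = 3 per group).

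In 2 of these genes TGFB1 had one of the 6 largest downward interactions among genes reaching 10 FPKM. Ak4, a mitochondrial adenylate kinase, was at 39.6, 42.7 and 43.0 FPKM without irradiation and 3.20, 2.74 and 1.99 FPKM after it. In irradiated organoids TGFB1 lowered it from 16.7 ± 0.403 to 2.64 ± 0.612 FPKM, while without irradiation the means were 44.3 ± 0.619 and 41.8 ± 1.89 FPKM (SD, n = 3; interaction −2.21 ± 0.13, SE, limma adjusted p 8.61e-09). Stc2, a secreted glycoprotein, was at 29.7, 32.0 and 32.1 against 1.54, 1.77 and 1.74 FPKM (interaction −2.13 ± 0.076, SE, limma adjusted p 7.79e-11). Glycolytic enzymes were part of the group, with Aldoa at 3782 against 1190.0 FPKM and Tpi1 at 917 against 376 FPKM. Pgk1 (142 against 30.0 FPKM) is uncertain because near-identical copies can share its reads. Vegfa, which drives vessel growth, was at 99.7 against 16.9 FPKM. Ldha, the muscle-type lactate dehydrogenase, and Gpi1, a glycolytic isomerase, were lower without being apart (1889 against 1043 and 437 against 295 FPKM).

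**Figure D3:**
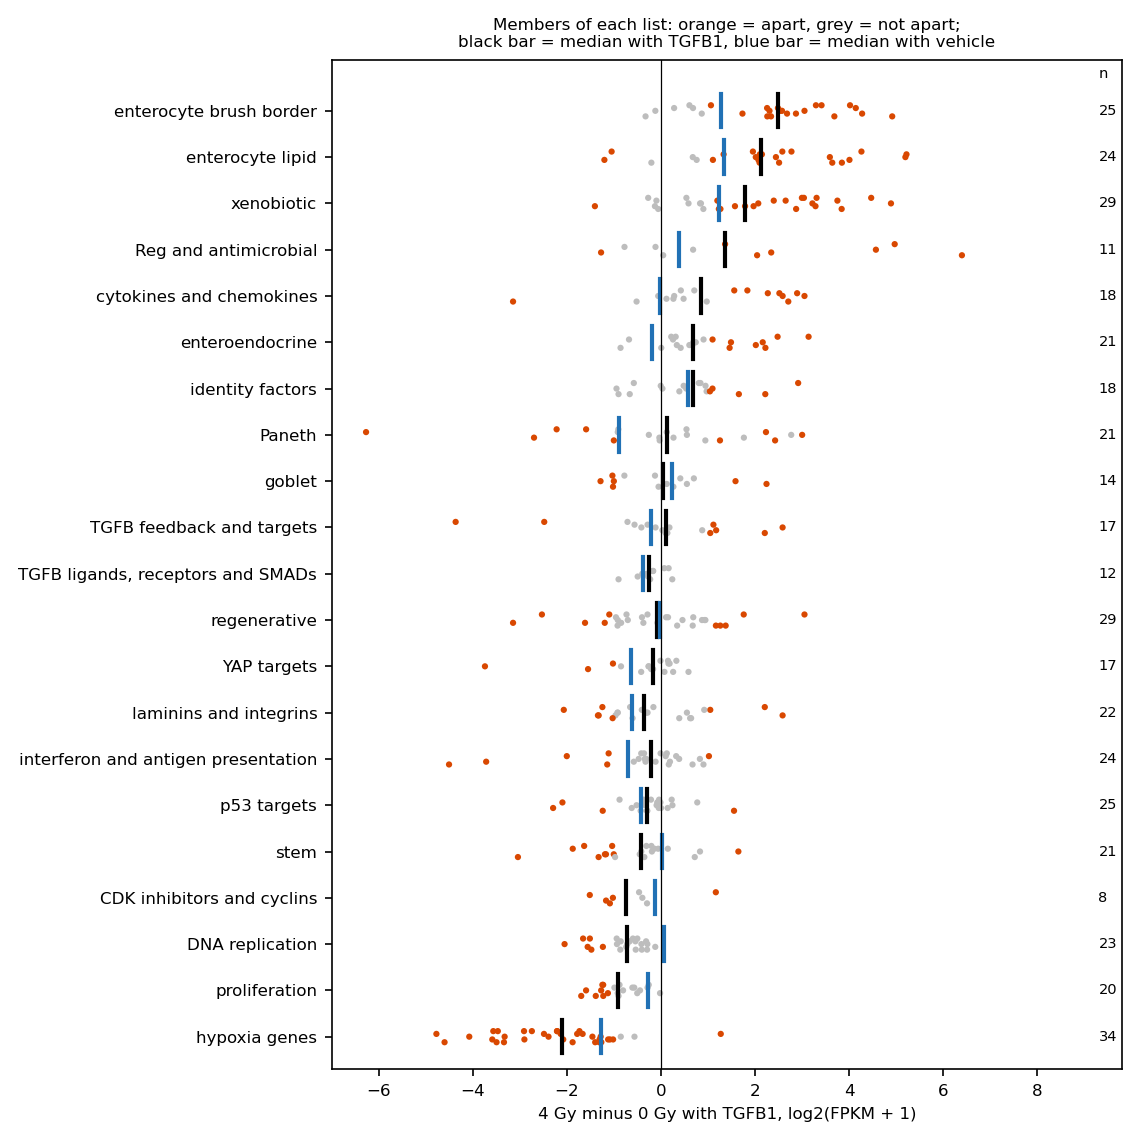
TGFB1 gaps (irradiated minus non-irradiated, log2 of FPKM + 1) of the members of 21 gene lists, 1 point per gene with n at the right; orange points are genes apart, black bars the list medians with TGFB1 and blue bars the medians with vehicle. Enterocyte lists lie to the right and hypoxia, proliferation and DNA replication lists to the left; in the enteroendocrine, cytokine, proliferation and replication lists the black and blue bars are well separated.

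Cell cycle genes were lower in irradiated TGFB1 organoids and nearer to level with vehicle. All 23 DNA replication genes had a downward interaction called by limma and a negative TGFB1 gap. In 22 of them every irradiated library lay below every non-irradiated one, as it did for 5212 of all 11403 genes. Of the 23, 6 passed the 2-fold limit for being apart, and their median gaps were 0.06 with vehicle and −0.72 with TGFB1. The 20 mitotic and proliferation genes gave the same picture, with a downward interaction in all 20, 8 apart and lower, 0 higher, and medians of −0.27 and −0.91. TGFB1 lowered 18 and raised 2 of the 23 replication genes without irradiation and lowered all 23 after it (median effects −0.36 and −1.33). The 2 raised without irradiation were Pcna, the sliding clamp of DNA polymerase (means 137 with vehicle and 186 FPKM with TGFB1), and Cdc6, which loads the replicative helicase (6.75 and 8.27 FPKM). Of the 20 proliferation genes, TGFB1 lowered 19 without and 20 after irradiation (median effects −0.96 and −1.72). The share of interactions called downward over all genes was 27.8%, and TGFB1 lowered 34.4% of all genes without and 40.3% after irradiation.

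Mki67, the Ki-67 antigen of dividing cells, was at 21.6, 22.8 and 21.8 FPKM without and 11.3, 12.9 and 9.90 FPKM with irradiation. The groups did not overlap, although the gap of −0.90 missed the limit of 1, and with vehicle the irradiated organoids had been the higher ones (56.6 against 47.1 FPKM). Its interaction was −1.16 ± 0.092 (SE, limma adjusted p 1.57e-07). Rrm2, a subunit of the enzyme that makes DNA precursors, was at 24.8, 25.0 and 26.3 against 8.79, 8.96 and 6.30 FPKM and opened (interaction −1.31 ± 0.12, SE, limma adjusted p 1.35e-06). Pcna, the sliding clamp of DNA polymerase, was the only member of the 2 lists that was carried over, at 186, 190.4 and 181 against 46.2, 44.1 and 42.0 FPKM with TGFB1 and means of 137 and 61.5 FPKM with vehicle. The kinase gene Cdk1 ended at 29.6 against 8.44 FPKM, while Plk1, another mitotic kinase, ended level at 27.1 and 26.7 FPKM.

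Of 8 cyclin and CDK inhibitor genes, the growth gene Myc included, 1 was apart and higher and 4 lower after irradiation (9.75% and 8.95% of all genes). Ccnd1 and Ccnd2, D-type cyclins that start the cycle, were apart and lower, whereas the D-type cyclin Ccnd3 was not apart (50.2 against 37.9 FPKM). Ccnd1 was at 123, 124 and 127 FPKM without and 43.6, 45.4 and 40.0 FPKM with irradiation. It rose with TGFB1 in non-irradiated organoids (0.77, limma adjusted p 1.79e-09) and fell in irradiated ones (−0.38, limma adjusted p 3e-06). The interaction of Ccnd1 was −1.14 ± 0.066 and that of Ccnd2 −1.05 ± 0.065 (SE, limma adjusted p 6.22e-09 and 1.37e-08). Myc, a growth-promoting transcription factor, went the same way without being apart (0.55 and −0.36). Inhibitors differed among themselves. Cdkn2b, the p15 inhibitor that TGFB signalling is known to switch on, was at 36.9, 44.1 and 40.2 against 81.3, 84.7 and 86.9 FPKM and opened upward, whereas Cdkn1a, the p21 inhibitor, rose in both arms to 411 and 334 FPKM with no interaction called (−0.09, limma adjusted p 0.285). Cdkn1c, the p57 inhibitor, opened upward at 4.15 against 10.6 FPKM. The p27 inhibitor Cdkn1b (51.6 against 24.9 FPKM) and the p18 inhibitor Cdkn2c (4.97 against 1.64 FPKM) were apart and lower after irradiation.

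Of 25 genes that p53 switches on after DNA damage, 1 was apart and higher and 3 lower, near the 9.75% and 8.95% of all genes, and 17 lay within 0.5 of level. The median gaps were −0.29 with TGFB1 and −0.44 with vehicle, 3 days after the 4 Gy dose. Those apart were Fas, a death receptor (1.82, 1.95 and 1.98 against 7.52, 6.44 and 8.85 FPKM), the cell death gene Pmaip1 (81.7 against 34.0 FPKM), the stress hormone Gdf15 (30.3, 36.4 and 38.3 against 5.49, 6.66 and 6.81 FPKM) and Ddit4, an inhibitor of the growth kinase mTOR (465 against 108 FPKM). Only Fas was higher after irradiation. Mdm2 and Bax, classical p53 targets, ended at 22.9 and 27.2 and at 109 and 106 FPKM.

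**Figure D4:**
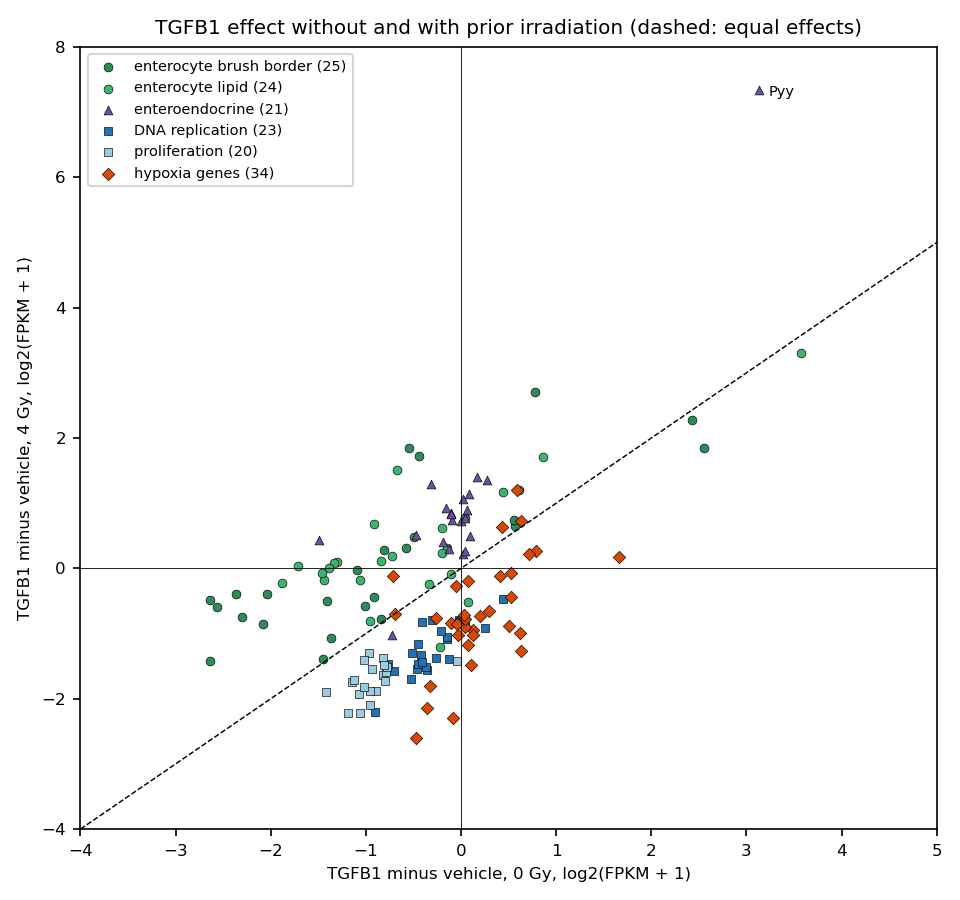
TGFB1 effect (TGFB1 minus vehicle, log2 of FPKM + 1) without irradiation on the horizontal and after 4 Gy on the vertical axis for the members of 6 gene lists; the dashed line marks equal effects. Enterocyte and enteroendocrine genes lie mostly above the line, while DNA replication, proliferation and hypoxia genes lie mostly below it.

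Stem cell genes split. Of 21 measured, 8 were apart and lower in the irradiated TGFB1 organoids and 1 higher, with a median gap of −0.42 against 0.03 with vehicle, and the interaction was called downward for 12 and upward for 4. Lgr5, the R-spondin receptor that marks crypt base stem cells, was at 82.7, 79.7 and 77.6 FPKM without and 8.93, 9.78 and 7.84 FPKM with irradiation, a 9.03-fold difference of means and 4.81-fold with vehicle (interaction −0.83 ± 0.079, SE, limma adjusted p 8.28e-07). Olfm4, another gene of crypt base cells, lay the other way round, at 80.6, 68.1 and 83.0 against 252, 269 and 211 FPKM. Neither gene overlapped between the groups. Olfm4 fell with TGFB1 in both arms, by less after irradiation (−2.26 and −1.45, interaction 0.81 ± 0.13, SE, limma adjusted p 0.000266).

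The Wnt target Ascl2, a transcription factor of stem cells, rose with TGFB1 without irradiation and not after it (1.07 and −0.17), and ended at 34.9 and 28.0 FPKM. Axin2, a Wnt feedback gene, ended at 28.5 and 27.4 FPKM, since TGFB1 lowered it only in the arm where it had been higher (interaction −0.98, limma adjusted p 5.61e-07). Slc12a2, an ion cotransporter of crypt cells, was at 319.9 against 102 FPKM, and the water channel gene Aqp4 at 7.66, 7.83 and 8.07 against 1.39, 1.77 and 1.12 FPKM.

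None of the 12 measured ligand, receptor and SMAD genes of the TGFB pathway was apart at the end point, where 9.75% of all genes were higher and 8.95% lower, so with 12 genes the count of 0 does not set them apart from other genes. The largest gap was that of the BMP receptor Bmpr1a (−0.90), and 11 of the 12 lay within 0.5. The ligand Tgfb1 was at 27.1, 29.4 and 28.3 FPKM without and 33.4, 33.0 and 34.2 FPKM with irradiation. The irradiated values were all the higher ones, yet by a gap of only 0.24. With vehicle, Tgfb1 had been lower after irradiation, at 3.58, 2.90 and 3.81 against 8.97, 10.4 and 10.4 FPKM, so TGFB1 raised it by more in irradiated organoids (interaction 1.55 ± 0.1, SE, limma adjusted p 2.67e-08) and the gap closed. The receptor genes Tgfbr1 (11.2 and 8.44 FPKM) and Tgfbr2 (55.4 and 58.2 FPKM) and the signal carriers Smad2 (11.7 and 7.98), Smad3 (28.3 and 25.0) and Smad4 (45.8 and 38.8 FPKM) ended close together.

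Feedback inhibitors rose in both arms, and their end levels were on either side of level. Smad7, which blocks the receptors, was at 20.3, 21.5 and 20.2 FPKM without and 15.2, 15.3 and 15.1 FPKM with irradiation, and Skil, which represses SMAD targets, at 37.1, 40.7 and 40.6 against 24.2, 22.3 and 24.6 FPKM. Both were lower after irradiation in every library without reaching 2-fold, and neither had an interaction called (limma adjusted p 0.0968 and 0.939). That of Smad7 was called without replicate 1 of the irradiated vehicle group (limma adjusted p 0.0480) and with quantile normalization (−0.26, limma adjusted p 0.00849). Pmepa1, which traps SMADs, was apart in the other direction, at 105, 104 and 98.2 against 215, 223 and 229 FPKM. Its TGFB1 effects were 4.31 and 4.46 (interaction 0.15, limma adjusted p 0.0883). That adjusted p was 0.0207 without replicate 2 of the non-irradiated vehicle group and 0.0462 with upper-quartile scaling. Of the 17 measured feedback and target genes, 5 were apart and higher and 2 lower.

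Among the other targets of TGFB, gaps were wide in both directions. Ctgf, a matrix-associated growth factor of the YAP list, rose with TGFB1 in both arms (4.22 and 2.68) and was at 172, 183 and 180.5 against 11.4, 11.8 and 14.1 FPKM, with vehicle means of 8.66 and 1.12 FPKM (interaction −1.54 ± 0.16, SE, limma adjusted p 5.23e-06). Its relative Cyr61 did not stay apart. Cyr61 ended at 71.7, 82.6 and 77.6 against 75.0, 80.7 and 88.4 FPKM, which overlap. TGFB1 raised it by more after irradiation and closed the vehicle gap of −1.38 (interaction 1.45 ± 0.12, SE, limma adjusted p 4.5e-07). Id2, an inhibitor of basic helix-loop-helix factors, was at 78.7, 79.2 and 77.6 without and 14.1, 14.2 and 11.5 FPKM with irradiation, and the groups were far from overlap. Col4a1 and Col4a2, which encode chains of basement membrane collagen, were higher after irradiation, at 0.305, 0.529 and 0.406 against 5.47, 5.41 and 5.64 and 0.217, 0.668 and 0.496 against 7.45, 7.49 and 8.12 FPKM. TGFB1 raised Col4a2 after irradiation (1.06, limma adjusted p 2.93e-07) and lowered it slightly without irradiation (−0.30, limma adjusted p 0.021).

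**Figure D5:**
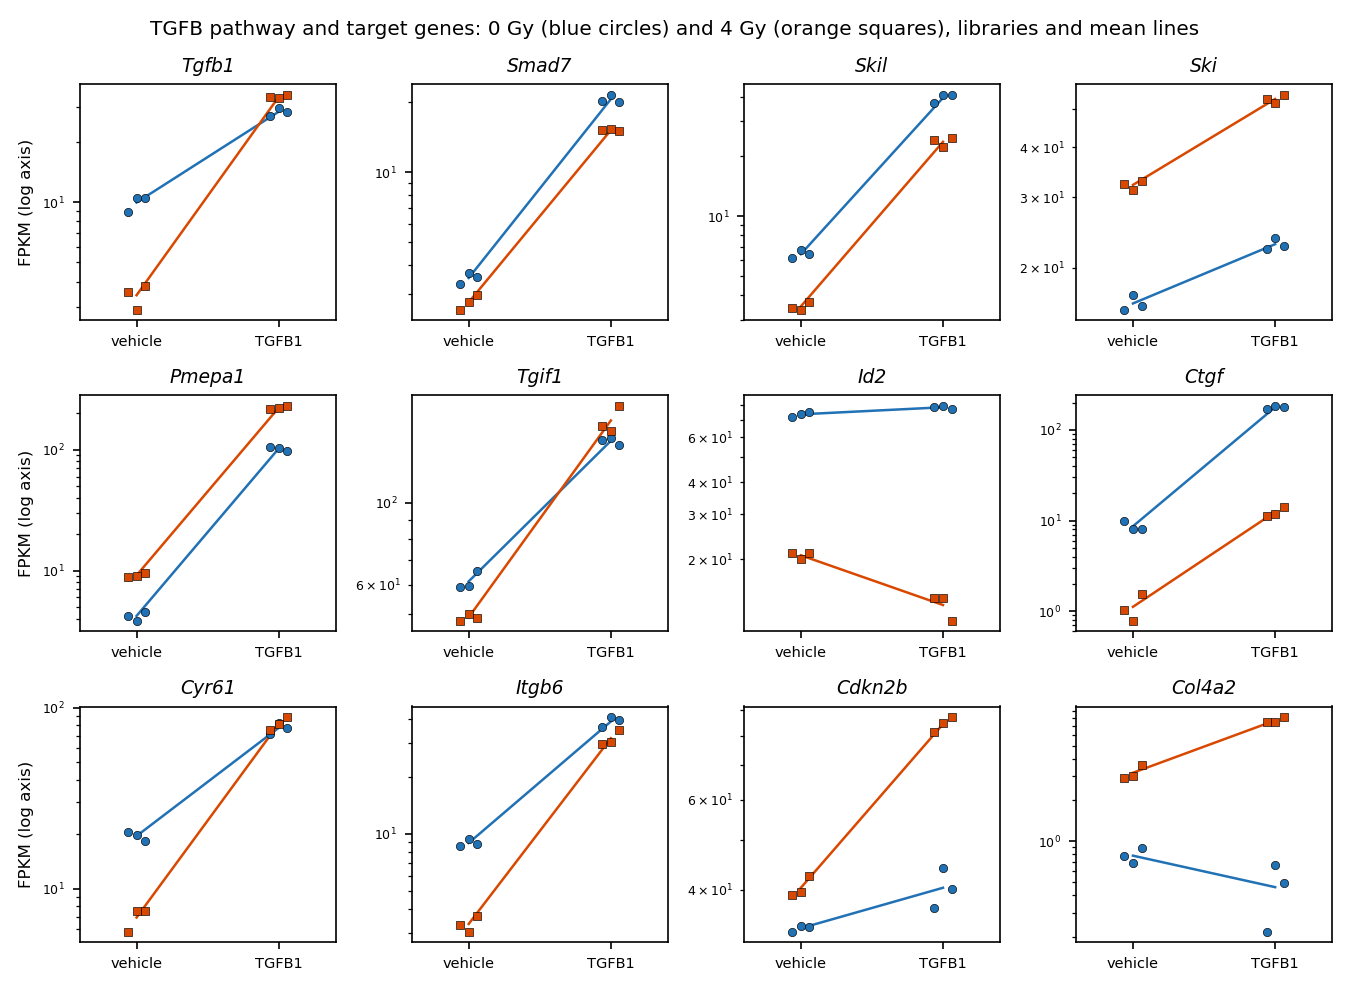
FPKM (log axis) of 12 TGFB pathway and target genes with vehicle and with TGFB1, 3 libraries per group (symbols) and lines through the group means; blue circles are without and orange squares with irradiation. The lines of Tgfb1, Cyr61 and Itgb6 come together with TGFB1, those of Id2 and Ctgf run far apart, and those of Cdkn2b part.

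Among 17 genes that the YAP and TAZ coactivators are known to switch on, 3 were apart and lower (Ctgf, F3 and Wwtr1) and 0 higher. Over all genes the shares were 8.95% lower and 9.75% higher, so with 17 genes the count of 0 says little. The median gap was −0.63 with vehicle and −0.17 with TGFB1. The interaction was called upward for 12 and downward for 2, against 25.3% and 27.8% of all genes. Wwtr1, which encodes TAZ itself, was at 18.8, 21.2 and 21.1 FPKM without and 5.90, 6.11 and 6.83 FPKM with irradiation, and the vehicle means were 18.5 and 1.27 FPKM (interaction 1.55 ± 0.083, SE, limma adjusted p 3.4e-09). F3, the tissue factor that starts clotting, was at 599, 674 and 625 against 298, 296 and 339 FPKM. Ankrd1, Amotl2 and Ajuba, often used as YAP readouts, ended within 0.3 of level at 4.39 and 4.32, 10.7 and 12.3, and 46.5 and 55.7 FPKM.

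Most regenerative genes rose with TGFB1 with or without irradiation. Of 27 fitted, limma called a rise for 26 without irradiation and 25 after it, against 32.7% and 36.1% of all genes. The list was chosen with earlier results of these data known, so these counts only describe it. At the end point 5 of the 29 measured were apart and higher and 5 lower (9.75% and 8.95% of all genes), with a median gap of −0.08. Clu, the secreted chaperone that marks revival stem cells, was at 1806, 1765 and 1732 FPKM without and 3839, 3912 and 4154 FPKM with irradiation. All irradiated values were higher, but by less than with vehicle, where the means were 47.7 and 191 FPKM (interaction −0.82 ± 0.087, SE, limma adjusted p 3.1e-06). Anxa1, an annexin that limits inflammation, went the other way without being apart, at 346, 352 and 326 against 202, 201 and 223 FPKM. Anxa8, a relative, was at 71.5 against 173 FPKM.

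Ly6a, the Sca-1 surface antigen of the regenerating gut, was lower after irradiation, at 255, 327 and 295 against 53.8, 48.3 and 46.4 FPKM. Its relative Ly6d ended nearly level (148 and 164 FPKM) after starting at 31.6 and 8.17 FPKM, since TGFB1 raised it by far more after irradiation (interaction 1.96 ± 0.15, SE, limma adjusted p 4.9e-07). The EGF receptor ligands were not uniform. Areg closed, from 221, 241 and 235 against 47.5, 51.1 and 45.8 FPKM with vehicle to 295, 352 and 342 against 157, 156 and 195 FPKM with TGFB1, while Ereg opened upward at 1.08 against 4.39 FPKM. The other 2 genes that changed order belong to this list. Gkn3, a stomach protein, was at 3.80, 2.82 and 1.41 against 13.4, 13.9 and 12.7 FPKM with vehicle and 153, 128 and 122 against 69.9, 68.5 and 49.6 FPKM with TGFB1 (interaction −3.12 ± 0.34, SE, limma adjusted p 6.65e-05). Sprr2f, of the cornified-envelope family, was at 2.80 against 8.56 FPKM and then 57.2, 61.2 and 51.9 against 25.9, 23.9 and 22.7 FPKM, and is uncertain because its near-identical relatives can share its reads.

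TGFB1 raised most laminin and integrin genes in both arms (18 and 20 of 21 fitted, 3 and 1 lowered). Of all genes it raised 32.7% and 36.1% and lowered 34.4% and 40.3%. Of the 22 measured, 3 ended apart and higher and 5 lower (9.75% and 8.95% of all genes). The laminin chain genes Lama3 (52.6, 63.3 and 57.8 against 35.6, 35.5 and 41.9 FPKM) and Lamb3 (131 against 98.5 FPKM), whose products anchor epithelia, ended within 1 of level. Of the integrins, receptors that tie cells to the matrix, Itgb1 (249.7, 272 and 264 against 101, 97.5 and 109 FPKM), Itga2 (54.2 against 21.0 FPKM) and Itgav (37.5 against 15.2 FPKM) were apart and lower after irradiation, and Itga3 (50.7 against 106 FPKM) was apart and higher. Itgb6, whose product activates latent TGFB, closed at 36.4, 41.1 and 39.6 against 29.8, 30.5 and 35.2 FPKM from vehicle means of 8.93 and 3.35 FPKM. Hspg2, the perlecan core protein, opened downward at 5.60 against 0.574 FPKM, and Fn1, fibronectin, opened upward at 0.807, 1.07 and 1.33 against 6.07, 7.32 and 6.78 FPKM.

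Paneth and goblet cell genes were mixed. Of 21 Paneth genes, 4 were apart and higher and 5 lower with TGFB1, while with vehicle 3 were higher and 10 lower. The 4 higher ones were Lyz2, Defa21, Defa22 and Defa5, all of families whose near-identical copies can share reads, so this count is uncertain. Their median gap went from −0.89 with vehicle to 0.12 with TGFB1, and the interaction was called upward for 14 and downward for 2. TGFB1 raised 4 of these genes and lowered 10 without irradiation, and raised 11 and lowered 3 after it. Of all genes it raised 32.7% and lowered 34.4% without irradiation, and raised 36.1% and lowered 40.3% after it. Lyz1, the lysozyme of Paneth cells, was at 1605, 1498 and 1485 against 2810.1, 2912 and 3091 FPKM, and its myeloid relative Lyz2, whose reads are hard to tell from it, at 0.242, 0.248 and 0.215 against 8.48, 9.27 and 8.89 FPKM. Itln1, a lectin, ended level at 1401 and 1366 FPKM, and Mmp7, the protease that activates defensins, was lower after irradiation, at 566, 534 and 516 against 174, 186 and 173 FPKM. The single Defa genes are not described further for that reason. Of the goblet cell genes, the trefoil peptide Tff3 (2605 against 1067 FPKM) and the folding factor Agr2 (139 against 67.8 FPKM) were lower after irradiation, the lectin Zg16 (15.1 against 75.3 FPKM) was higher, and the mucin Muc2 was at 10.8 and 13.1 FPKM.

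Of 24 interferon and antigen presentation genes, 5 were apart and lower and 1 higher (8.95% and 9.75% of all genes), and the class II genes had the widest gaps. Cd74, the invariant chain, was at 89.4, 80.5 and 79.9 FPKM without and 2.26, 3.03 and 2.85 FPKM with irradiation, and H2-Ab1, a class II chain, at 26.0, 25.6 and 27.5 against 0.912, 0.941 and 1.42 FPKM. Both were also far lower after irradiation with vehicle (means 26.2 and 0.561, and 14.3 and 1.38 FPKM). The interaction of Cd74 was −0.38 ± 0.12 (SE, limma adjusted p 0.0185), but 0.44 (limma adjusted p 0.102) with 0.1 instead of 1 added to the FPKM, so no direction can be given. Without replicate 3 of the non-irradiated vehicle or replicate 1 of the non-irradiated TGFB1 group, the adjusted p of Cd74 was 0.0502 and 0.0521. The class I light chain gene B2m was not apart, at 772 and 1443 FPKM. H2 genes have similar copies and are uncertain.

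Other genes with wide gaps or large interactions belonged to none of these groups. Cst6, an inhibitor of cysteine proteases, opened at 0.989, 1.02 and 0.981 against 12.8, 14.4 and 15.7 FPKM (interaction 2.33 ± 0.12, SE, limma adjusted p 1.65e-09). It already differed 2.60-fold with vehicle without overlap (means 0.480 and 1.25 FPKM), but its vehicle gap was 0.60 on the log2(FPKM + 1) scale. Cited1, a transcriptional cofactor, rose with TGFB1 without irradiation and fell after it (1.60 and −0.58), and ended at 13.7, 13.4 and 17.1 against 0.822, 0.841 and 0.160 FPKM (interaction −2.17 ± 0.23, SE, limma adjusted p 3.74e-06). Tmem237, a protein of the ciliary base, fell in both arms by about as much (−1.65 and −1.61), at 103, 111 and 112 against 4.27, 4.74 and 3.65 FPKM with TGFB1 and means of 342 and 14.9 FPKM with vehicle. Of the ribosomal proteins, Rpl29 was at 0.278, 0.115 and 0.345 against 1096, 1089.8 and 1117 FPKM, and Rpl38 and Rpl26 were at 129, 136 and 121 against 9.37, 4.95 and 3.05 and 78.3, 76.3 and 67.7 against 6.98, 3.15 and 6.55 FPKM. These families have many near-identical copies in the genome, and the values are uncertain. Defa6 (83.8, 424 and 508 FPKM) is listed near 0 in every non-irradiated library, so no fold is given.

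The closed genes with the widest vehicle gaps were Rbp7, Fpgs, Wdr46 and Mettl1 on the higher and H2-Bl, Grm4, Areg and Sat1 on the lower side. Rbp7, a retinol carrier, went from 2.65, 2.93 and 4.02 against 26.2, 31.3 and 28.8 FPKM with vehicle to 0.0690, 0 and 0.280 against 0.399, 0.668 and 0.781 FPKM with TGFB1, near 0 in both arms. Grm4, a glutamate receptor, counted as closed from the other side. It went from 11.4, 10.9 and 11.0 against 0.282, 0.395 and 0.412 FPKM to 1.55 ± 0.0458 (SD, n = 3) against 0.399, 0.320 and 0.317 FPKM. With TGFB1 its means still differed 4.49-fold without overlap (30.6-fold with vehicle), so it is closed only on the log2(FPKM + 1) scale. The interactions of Rbp7 and Grm4 were −2.30 ± 0.18 and 2.23 ± 0.095 (SE, limma adjusted p 1.6e-07 and 4.83e-10). That of Rbp7 rests on the 1 added to the FPKM: with 0.1 added it was −1.24 and no longer called (limma adjusted p 0.0851), and the fold between the irradiated and non-irradiated means was 8.99 with vehicle and 5.30 with TGFB1. Fpgs, which retains folates in cells, Wdr46, a nucleolar protein, and Mettl1, a transfer RNA methyltransferase, fell with TGFB1 after irradiation, from 25.5, 46.6 and 47.1 to 12.2, 26.2 and 22.9 FPKM, and ended nearer to the non-irradiated 8.50, 14.0 and 12.4 FPKM. Sat1, which breaks down polyamines, rose in both arms and ended at 438 and 230.2 FPKM. H2-Bl, of the class I family, ended at 3.52 and 1.59 FPKM, still 2.21-fold apart (10.6-fold with vehicle). It too is closed only on the log2(FPKM + 1) scale, and it is uncertain for the same reason as the other H2 genes.

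Some TGFB1-responsive genes ended at nearly one level in the 2 arms. TGFB1 raised 491 genes at least 2-fold in both arms, and at the end point 11.4% of these were apart and higher and 11.0% lower, close to the shares over all genes, with a median gap of 0.01. Of 122 genes lowered at least 2-fold in both arms and measured, 31 were higher and 25 lower (25.4% and 20.5%, above the shares over all genes), with a median gap of −0.21. Gaps between −0.2 and 0.2 were counted only among genes reaching 10 FPKM in at least 1 group, short, unnamed and clone-named RNAs left out. With such a gap, 69 genes rose and 14 fell at least 2-fold in both arms, with no adjusted p required. They are thus no shares of the 491 and 122 genes. Vill, of the villin family, rose from 1.25 and 1.30 FPKM to 31.1, 31.5 and 33.9 and to 32.0, 31.5 and 33.1 FPKM, with all 6 values intermixed. Aldh1a3, which makes retinoic acid, ended at 38.1, 41.6 and 38.7 and 40.1, 37.8 and 48.5 FPKM, and Prkcdbp, a caveolar protein, at 53.1, 59.2 and 49.4 and 49.0, 49.1 and 58.0 FPKM. Serpina9, a serine protease inhibitor, ended at 13.2 and 11.3 FPKM. Among the lowered genes were Neu3, a sialidase (3.00 and 3.29 FPKM), Cdca3, a cell cycle gene (26.8 and 26.3 FPKM), the receptor gene Gpr133 (3.42 and 3.05 FPKM) and Ugt2b35, a glucuronosyltransferase (22.1 and 21.0 FPKM). These genes were chosen for their small gap, so their nearness is no result, but their routes differed. Cdca3 started from 69.1 and 129.8 FPKM and fell by more after irradiation (interaction −0.94, limma adjusted p 0.000129).

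The epithelial label held in both arms, and markers of other cells were low. None of 8 epithelial genes was apart, with Cdh1, the epithelial cadherin, at 509 and 585 FPKM and Epcam, an epithelial adhesion molecule, at 2082 and 1129.9 FPKM. Of all genes 9.75% were apart and higher and 8.95% lower, so with 8 genes the count of 0 says little. The gaps of Epcam (−0.88) and Vil1 (0.865) were near the limit of 1. Of 16 immune markers, 8 stayed under 0.1 FPKM in all 6 TGFB1 libraries, among them Ptprc, the pan-leukocyte antigen. The list summed to between 22.4 and 24.4 FPKM in the non-irradiated and between 14.7 and 16.5 FPKM in the irradiated TGFB1 libraries, mainly from Cd68 (21.8 and 3.43 FPKM) and Lyz2. Of 14 mesenchymal markers, 9 stayed under 0.1 FPKM, with Dcn, Lum and Foxl1 at 0. These summed to between 5.25 and 5.86 FPKM without irradiation and between 7.39 and 10.3 FPKM after it, from Vim (4.62 and 5.14 FPKM) and Acta2 (0.108 and 3.22 FPKM). Endothelial markers summed to 0.225 to 0.352 and 0.334 to 0.528 FPKM, and neural markers to 4.16 to 4.84 and 6.80 to 7.05 FPKM, mostly Ret (3.11 and 4.07 FPKM). The sums of these lists moved with irradiation, and their part in the results above was not tested. Of 18 housekeeping genes, 3 were apart and higher and 3 lower. Actb, cytoskeletal actin, was at 4104 and 4121 FPKM and Hprt, a purine salvage enzyme, at 180.5 against 72.5 FPKM, so genes often taken as constant were not all level between the tables.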

How the data were processed

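RNA of 12 day 7 organoid libraries (4 groups of 3) was analysed. RNA was extracted with the QIAGEN RNeasy Micro Kit and libraries were made with a BGI in-house kit, per the labels' protocols. The deposited values are FPKM that the authors computed, in 1 table for the irradiated and 1 for the non-irradiated libraries, which may have been normalized separately. The submitters' processing notes name TopHat2 2.1.0, Cuffnorm 2.2.1 and Cuffdiff 2.2.1 beside tools for the other assays, and the builds mm9, GRCm39 and mm39, without saying which made these tables, whether strand was used or how reads with several positions were counted. Read depth cannot be had from these values, and a table-wide difference in scale would shift every gap and, apart from the pseudocount, not the interaction.

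The tables were joined on gene symbol (23951 genes) and put on a log2(FPKM + 1) scale, on which fold changes of low genes are understated. Genes entered with a mean of at least 1 FPKM over the libraries compared. Gaps between tables were not tested. Effects of TGFB1 within each table and the interaction were tested with limma 3.58.1 (trend and robust options, 1 coefficient per group, R 4.3.3) with Benjamini-Hochberg adjustment over 11411 genes, and the fit was checked on simulated data. Tables and figures were made with Python 3.11.15, pandas 2.3.3 and matplotlib 3.10.9. Promoter sequences are RefSeq's for GRCm38.p6.

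The members, the 38 gene lists (754 entries) and the rules were chosen with earlier results of these data known, and the hypoxia list after its leading genes had been seen here. Genes named outside the lists were the 12 with the highest and the 12 with the lowest gap among those apart and at 10 FPKM or more in the higher group, the 6 with the highest and 6 with the lowest interaction called, the 4 closed genes with the largest vehicle gap in each direction, and the 4 largest rises and falls common to both arms with a gap within 0.2. Short, unnamed and clone-named RNAs were left out of these, and a few genes are not reported here by name, though counts include them. Pla2g2a, Wdfy1 and Eif2s3y, and list members given as examples, were picked after their values were seen. Alternatives were another pseudocount (0.1), other filters, 3 rescalings, another gap threshold, limma without its options, a replicate block, each library left out, and, added after seeing the data, multi-copy families left out.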

Additional observations from a re-analysis of the deposited data

Results flagged for a closer look

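The TGFB1 effect differed between irradiated and non-irradiated organoids for 2888 genes upward and 3173 downward by limma's interaction test (adjusted p under 0.05), which is what places the following genes here. Among genes reaching 10 FPKM, the largest upward differences were in Pyy (4.21), Nos2 (3.15), Ccl20 (3.02), Csf1 (2.61), Lct (2.39) and Cst6 (2.33), on the log2(FPKM + 1) scale. In all 6 the irradiated TGFB1 libraries lay above the non-irradiated ones, while with vehicle the irradiated means were lower for Pyy, Nos2 and Ccl20.

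The largest downward differences were in Gkn3 (−3.12), Sprr2f (−2.52), Rbp7 (−2.30), Ak4 (−2.21), Cited1 (−2.17) and Stc2 (−2.13). TGFB1 raised Gkn3 and Sprr2f in both arms and by more without irradiation, and it lowered Stc2 in both arms and by more after irradiation. It lowered Ak4 after irradiation, with no change called without it (−0.08, limma adjusted p 0.422). Rbp7 was near 0 with TGFB1 in both arms (means 0.116 and 0.616 FPKM), and with 0.1 added to the FPKM its interaction was −1.24 (limma adjusted p 0.0851).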

How the results depend on the processing

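The 2-fold limit for calling a gene apart mattered most. At 1.5-fold, 2237 genes were higher and 2621 lower in irradiated TGFB1 organoids, 3290 were carried over, 1246 opened, 860 closed and 26 changed order. The pseudocount, filter, scaling and limma alternatives left every count within 1.5 times the reported one. With 1 library left out at a time, genes apart numbered 1090 to 1129 higher and 1012 to 1047 lower, the interaction was called upward for 2648 to 2817 and downward for 2960 to 3114, and 1183 to 1216 genes were carried over, 762 to 813 opened, 382 to 402 closed and 3 to 5 changed order. Without 257 genes of multi-copy families or read in 1 table only, an alternative chosen after seeing the data, 1075 were higher, 974 lower and 765 opened.

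Whether replicate numbers pair the samples is not known. Deviations from the group means correlated at −0.0297, 0.161 and 0.0486 between same-numbered vehicle and TGFB1 libraries without irradiation. After irradiation these values were 0.0767, 0.212 and 0.0245. Between libraries of different number they ran from −0.141 to 0.0919 without irradiation and from −0.151 to 0.0731 after it. The highest value in each arm was that of replicate 2 with replicate 2. With the replicate block in the fit, the interaction was called upward for 2848 and downward for 3116 genes, with 784 opened and 394 closed.

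Among the genes named, 2 interactions changed sign. That of Cd74 was 0.44 with a pseudocount of 0.1, and that of Actb was −0.084 with quantile normalization. The cause was not tested. Near the threshold, a single library decided the call for Rpl26 (adjusted p 0.0551, 0.0517 and 0.0506 without replicate 1 of the non-irradiated vehicle, irradiated vehicle and non-irradiated TGFB1 group) and Rpl38 (0.000266 without replicate 1 of the irradiated TGFB1 group). Rpl29 (−0.07) and Lama3 (−0.01) were no longer called with a pseudocount of 0.1. Over all alternatives, 3752 interaction values of named genes kept direction and call, 17 lost and 33 gained the call, and 121 gaps of named genes moved by more than the spread between replicates, all with another pseudocount or scaling. Read depth is unknown, so for genes listed near 0 no counting error can be given.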
